A study of Mus musculus with 6 samples.

Results

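The colony-stimulating factors and their receptors were followed in single cells of 6 mouse rhabdoid tumors. The members are 8 genes of the 16557 listed in the 6 tables of unique molecular identifiers (UMIs, which count captured RNA molecules), chosen by name as the family: the ligands Csf1, Il34, Csf2 and Csf3, and the receptor genes Csf1r, Csf2ra, Csf2rb and Csf3r. A gene that a tumor's table did not list was counted as 0, and since each table lists genes found in at least 3 cells, up to 2 cells with such a gene can be hidden. Tumor cells were read as the possible source of the ligands and the myeloid cells as their receivers.

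All 6 tumors arose in mice with loxP-flanked Smarcb1, the SWI/SNF chromatin subunit whose loss defines rhabdoid tumors, recombined by a tamoxifen-inducible Cre. The 3 MYC spinal tumors came from the Rosa26-cre strain, in which Cre can act in any cell, at 19, 26 and 17 weeks of age (MYC spinal 1, 2 and 3). The 3 extracranial rhabdoid tumors (eRT) came from a Rosa26-cre mouse (eRT 1, a gland, 17 weeks) and from 2 Sox2-cre mice, in which Cre acts in Sox2-positive cells (eRT 2, the jaw, 29 weeks, and eRT 3, the shoulder, 22 weeks). Tamoxifen was given at 6.5 days post-coitum at 50 mg/kg, and no normal tissue was analysed here. Each library held cells of 1 tumor, and no MYC spinal tumor came from the Sox2-cre strain, so the subtype and the strain can be told apart only in part.

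CSF1 and interleukin 34 are the ligands of CSF1R, a receptor tyrosine kinase that macrophages, monocytes and osteoclasts need for survival and growth. CSF3 (G-CSF) drives the production of neutrophils through the single-chain receptor CSF3R. CSF2 (GM-CSF) is sensed by a receptor of a ligand-specific alpha chain, Csf2ra, and a signalling beta chain, Csf2rb, which in mice has a close copy, Csf2rb2, used by interleukin 3. Tumor-derived CSF1 is known as an attractant of macrophages in many solid tumors.

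The promoter DNA of 3 members is shown because PU.1 (the product of Spi1), a myeloid transcription factor, is known to drive receptor genes of this family through purine-rich sites, whereas Csf1 is the ligand on the tumor cell side. The windows, from RefSeq on GRCm38.p6, cover bases before the RefSeq start, up to the last one for Csf1 and Csf2ra, and are written 5′ to 3′ on the gene's strand, in lower case with each copy of the core GAGGAA in capitals. The Csf1 window lies at chr3:107760470-107760719 on the minus strand, that of Csf2ra at chr19:61228419-61228668 on the minus strand, and that of Csf3r, which stops earlier and has 171 bases, at chr4:126024409-126024579 on the plus strand.
Csf1: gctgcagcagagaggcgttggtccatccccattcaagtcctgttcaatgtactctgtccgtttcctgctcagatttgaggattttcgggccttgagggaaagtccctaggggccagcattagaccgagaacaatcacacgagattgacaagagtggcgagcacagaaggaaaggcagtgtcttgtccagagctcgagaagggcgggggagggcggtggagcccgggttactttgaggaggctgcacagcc
Csf2ra: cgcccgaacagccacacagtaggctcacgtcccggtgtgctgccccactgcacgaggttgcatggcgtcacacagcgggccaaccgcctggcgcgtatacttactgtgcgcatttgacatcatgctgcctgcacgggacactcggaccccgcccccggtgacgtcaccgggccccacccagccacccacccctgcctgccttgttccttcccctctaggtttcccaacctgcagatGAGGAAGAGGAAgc
Csf3r: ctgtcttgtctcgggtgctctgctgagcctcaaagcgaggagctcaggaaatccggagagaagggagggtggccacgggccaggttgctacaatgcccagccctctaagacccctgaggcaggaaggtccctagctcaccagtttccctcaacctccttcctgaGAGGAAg
The Csf1 window held no copy on either strand, the Csf2ra window held 2 back to back, starting 14 and 8 bases before the start, and the Csf3r window held 1, starting 86 bases before. In the GENCODE annotation the genes start further upstream, so that the last 30 bases of the Csf3r window, with its copy, and the last 11 bases of the Csf2ra window, with its second copy and part of the first, lie inside the annotated gene. The core GAGGAA, or its reverse complement TTCCTC, was found in 7639 of 32851 windows of 250 bases over all genes, 23.3%, so that a single copy is common and is a description, not a binding site. Csf2 (chr11:54247271-54249667, minus strand) held none in its window.

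Tumor cells were the clusters with under 0.25 of the Smarcb1 UMIs expected from the immune-like cells of each cell's own tumor. The ratio was taken over a whole cluster, with the tumors of a subtype together. The MYC spinal cluster led by Dlk1 and Meg3 had 21 Smarcb1 UMIs of 332 expected. Of its cells, 97, 16 and 1381 came from MYC spinal 1, 2 and 3, so MYC spinal 3 weighs most in that ratio. The 16 cells of MYC spinal 2 were not judged by their own Smarcb1 UMIs. A cluster that its markers named as an immune class was not called tumor, whatever its Smarcb1 level. Other cells were named after marker genes as macrophage-like, monocyte-like and so on, with the members left out of the clustering. Of 22681 deposited cells, 22163 were kept, with 3841706 to 26184224 UMIs and a median of 916 to 5211 UMIs per cell in a tumor. Smarcb1, on which the rule rests, stood at 0 to 6.41 CPM (UMIs of the gene per 1000000 UMIs of the class) in tumor cells. That low level follows from the rule. Macrophage-like cells held Smarcb1 at 27.3 to 70.1 CPM and fibroblast-like cells at 13.3 CPM. Neutrophil-like cells, at 4.35 to 26.0 CPM, and T cell-like cells, at 0 to 122 CPM, overlapped the range of tumor cells. Where the deleted part of Smarcb1 lies against these 3′ tags is not given in the sources used here. MYC spinal 2 stood apart: its 107 macrophage-like cells held the 10 macrophage markers at a summed 1585 CPM, against 9432 to 30632 CPM in the other 5 tumors, and the 13 neutrophil markers at 17007 CPM, and its 16 tumor cells held those neutrophil markers at 17425 CPM. Most tests of the members that rest on these cells, and some of the means, are given with and without that tumor. The tests of Csf2rb2 and of the list of relatives are given with it only.

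Csf1, the main growth factor of macrophages, was the ligand with the highest CPM in the tumor cells of every tumor, and in 5 of the 6 tumors it was higher there than in the pooled myeloid-like cells. Csf1 RNA in tumor cells was at 22.0 CPM in MYC spinal 1 (12 UMIs in 97 cells), 243 CPM in MYC spinal 2 (11 UMIs in 16 cells) and 107 CPM in MYC spinal 3 (862 UMIs in 1477 cells). In the eRT it was at 135 CPM in eRT 1 (63 UMIs in 68 cells), 89.6 CPM in eRT 2 (56 UMIs in 202 cells) and 754 CPM in eRT 3 (2281 UMIs in 628 cells). The tumors thus spanned a wide range, with eRT 3 highest, MYC spinal 1 lowest, and the 2 subtypes overlapping. Tumor cells held 97.6% of all Csf1 UMIs in eRT 3, 85.3% in MYC spinal 3, 80.8% in eRT 1 and 53.8% in eRT 2, but 28.9% in MYC spinal 2 and 27.9% in MYC spinal 1, and these shares also move with how many cells of each class were captured.

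Most of the other cells held little Csf1. The pooled myeloid-like cells (macrophage-, monocyte-, neutrophil-, granulocyte-monocyte progenitor-, dendritic- and osteoclast-like) held it at 21.8, 2.73 and 8.30 CPM in MYC spinal 1, 2 and 3, and eRT 1, 2 and 3 had 1.5, 22.7 and 5.94 CPM. Within a tumor, the ratio of Csf1 CPM in tumor cells to that in myeloid-like cells was 89.0 in MYC spinal 2, 12.9 in MYC spinal 3, 89.5 in eRT 1, 3.96 in eRT 2 and 127 in eRT 3. In MYC spinal 1 it was 1.01 (95% exact counting interval 0.459 to 2.09), so a difference was not detectable there at this depth. Single classes reached or passed the tumor cell level in 2 tumors. In MYC spinal 1 macrophage-like cells held Csf1 at 35.2 CPM against 22.0 CPM in tumor cells (ratio of tumor to macrophage-like level 0.624, 0.276 to 1.35), and 24 cells without a name held it at 53.1 CPM (17.3 to 124). In eRT 2 neutrophil-like cells held it at 109 CPM (70.4 to 161) against 89.6 CPM (67.7 to 116) in tumor cells. Each of these intervals overlapped or included equality, so no order between those classes was detectable. These intervals, and all others given, cover counting error only.

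**Figure D1:**
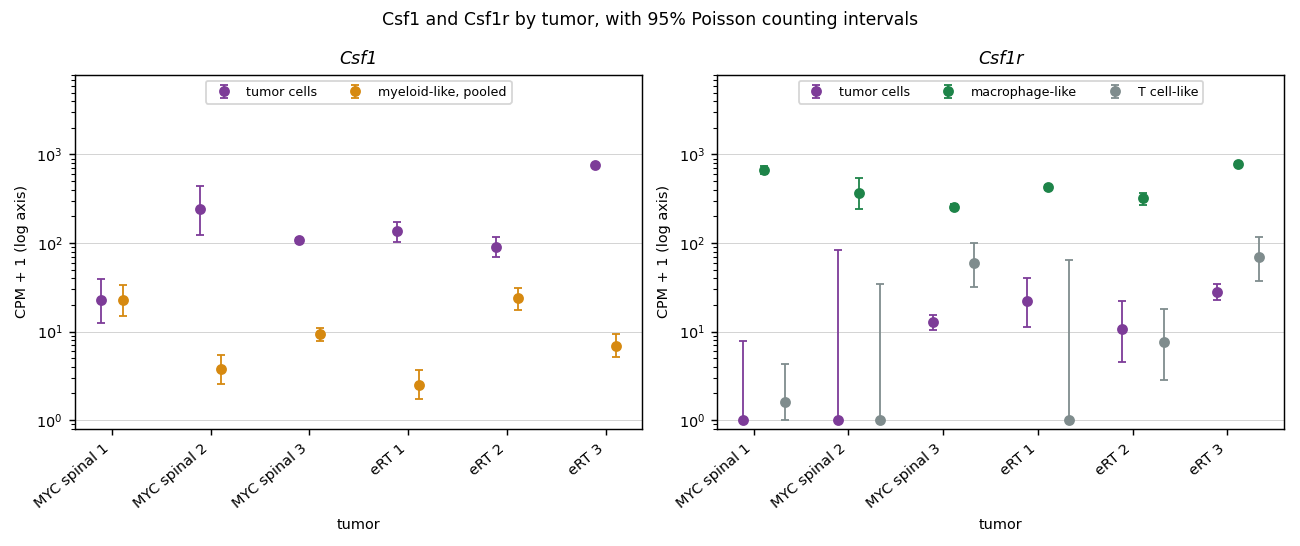
Csf1 (left) and Csf1r (right) in CPM plus 1 on a log axis for each tumor, with 95% Poisson counting intervals; colors mark tumor cells, pooled myeloid-like cells, macrophage-like cells and T cell-like cells. Csf1 of tumor cells lies above that of myeloid-like cells in 5 tumors and level with it in MYC spinal 1 (22.0 and 21.8 CPM), and Csf1r of macrophage-like cells (254 to 788 CPM) lies above that of tumor cells (0 to 27.1 CPM) in all 6.

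The Csf1 UMIs were spread over many tumor cells in the deeply captured tumors. In eRT 3, 83.1% of tumor cells (exact binomial interval 80.0 to 86.0%) had at least 1 Csf1 UMI, 200 cells had 5 or more, and the 10 richest cells held 8.46% of the UMIs. In MYC spinal 3 the share of cells with a UMI was 24.3% and the 10 richest cells held 13%. In eRT 1 and eRT 2, with 19 and 18 positive cells, the 10 richest held 85.7% in each. Thinning each cell to 1000 UMIs, which puts cells of unequal depth on 1 scale, left out 24 of the 2488 tumor cells, and the shares became 45.1% in eRT 3, 7.72% in MYC spinal 3, 5.88% in eRT 1, 2.20% in eRT 2, 1.04% in MYC spinal 1 and 23.1% of 13 cells in MYC spinal 2.

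For comparison, T cell-like cells, which should hold little Csf1, had a UMI in 0 to 2.97% of cells before thinning, at a median depth of 490.5 to 1938 UMIs against 2056 to 6142 UMIs in tumor cells, and in 0 to 1.98% after it. The thinned share in MYC spinal 1 tumor cells was within that background, and that in eRT 2 was close to it. The share in eRT 2 pools a cluster of 54 cells, which held all 56 of its Csf1 UMIs, with a cluster of 146 cells that held 0. Macrophage-like cells had a Csf1 UMI in 0 to 2.85% of cells in 5 tumors and in 9.03% in MYC spinal 1.

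Csf1 also differed between kinds of tumor cells within a tumor. In eRT 2, the 54 cells of the cluster led by C1qtnf3 and Tlx2 held all 56 Csf1 UMIs of its tumor cells, in 18 of those cells, and the 146 cells of the cluster led by Gap43 and Npy held 0, which allows a share of up to 2.05% of cells with a UMI. In eRT 3 both clusters held it, with 1972 UMIs in 560 cells, 3.52 per cell, and 309 UMIs in 68 cells, 4.54 per cell. In eRT 1 the C1qtnf3 cluster held 51 UMIs in 20 cells, 2.55 per cell, and the cluster led by Cldn4 and Cldn3 held 11 in 36 cells, 0.306 per cell. The Gap43 cluster of eRT 1 held 1 UMI in 12 cells, so that the C1qtnf3 cluster held most of the tumor cell Csf1 UMIs in each of the 3 eRT, and the Gap43 cluster held more than 1 UMI in eRT 3 alone. In MYC spinal 3 the large cluster led by Dlk1 and Meg3 held 857 UMIs in 1381 cells, 0.621 per cell, and the small one led by Efemp1 and Bex1 held 5 UMIs in 96 cells, 0.0521 per cell. Cells of a cluster come from the same animal, so these are descriptions of single tumors.

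Outside the tumor cells, neutrophil-like cells had the highest Csf1 level of the named classes with at least 10 cells in 2 tumors. Their Csf1 was at 28.6 CPM in MYC spinal 3 and 109 CPM in eRT 2, which was 6.53 times (2.71 to 15.2) and 6.72 times (2.94 to 17.2) the level of macrophage-like cells, but it was at 2.51 CPM in the 1344 neutrophil-like cells of MYC spinal 2. Fibroblast-like cells of eRT 3, the only tumor with more than 10, held it at 31.1 CPM. Their cluster had 4 Smarcb1 UMIs of 12.4 expected, a ratio of 0.324, so that it counts as tumor under a limit of 0.5, and it raised 6 of the 7 fibroblast markers, as the eRT tumor clusters led by C1qtnf3 and Gap43 raised 6 and 5. Whether these are tumor cells was not tested.

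Il34, the second ligand of CSF1R, was scarce, and most of its UMIs in eRT 3 were in tumor cells and in the fibroblast-like cells that a Smarcb1 limit of 0.5 would call tumor. Il34 was not listed in MYC spinal 1 and 2. Tumor cells held 5 of 17 UMIs in MYC spinal 3 (0.619 CPM) and 5 of 18 in eRT 1 (10.7 CPM), so that most lay in other cells there. They held 7 of 8 in eRT 2 (11.2 CPM) and 52 of 62 in eRT 3 (17.2 CPM). The 3 eRT lay above MYC spinal 3, but Il34 did not pass the filter on low counts, and the 0 in the 16 tumor cells of MYC spinal 2 allows up to 66.3 CPM. In eRT 3 the fibroblast-like cells held 9 UMIs, 39.9 CPM (18.3 to 75.8), an interval that overlapped that of its tumor cells (12.8 to 22.5). In every tumor the Il34 level of tumor cells was under that of Csf1, on the scale of 3′ UMIs, which count molecules and do not grow with transcript length.

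Csf3, which calls forth neutrophils, came from different cells in different tumors. Of the 334 Csf3 UMIs of MYC spinal 3, 312 were in tumor cells (38.6 CPM), in 80 of 1477 cells, and the 10 richest cells held 43.6% of them, with up to 28 in 1 cell. In eRT 2, 77 of 107 UMIs were in monocyte-like cells (92.1 CPM), 21 in neutrophil-like cells (91.4 CPM) and 4 in tumor cells (6.40 CPM), so that the monocyte-like level was 14.4 times (5.39 to 54.1) that of the tumor cells. In MYC spinal 3 that same ratio was 0.164 (0.0444 to 0.424). eRT 1 and eRT 3 had 5 Csf3 UMIs each, all in tumor cells, and MYC spinal 1 and 2 had none listed.

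Csf2, the T cell-derived factor for granulocytes and macrophages, was found in lymphoid-like cells and in no tumor cell. Its 9 UMIs in MYC spinal 1 were in 8 T cell-like cells and 1 NK cell-like cell, and of its 14 UMIs in eRT 2, 9 were in T cell-like cells, 1 in an NK cell-like cell and 4 in cells without a name. The T cell-like level was 4.78 CPM in MYC spinal 1 and 14.9 CPM in eRT 2. In the eRT the cluster richest in Csf2 was the one led by Il17a (22.5 CPM). With 0 UMIs in tumor cells, the 3 counts a 0 allows correspond to at most 66.3 CPM in the 16 cells of MYC spinal 2 and 0.372 CPM in the 1477 cells of MYC spinal 3.

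**Figure D2:**
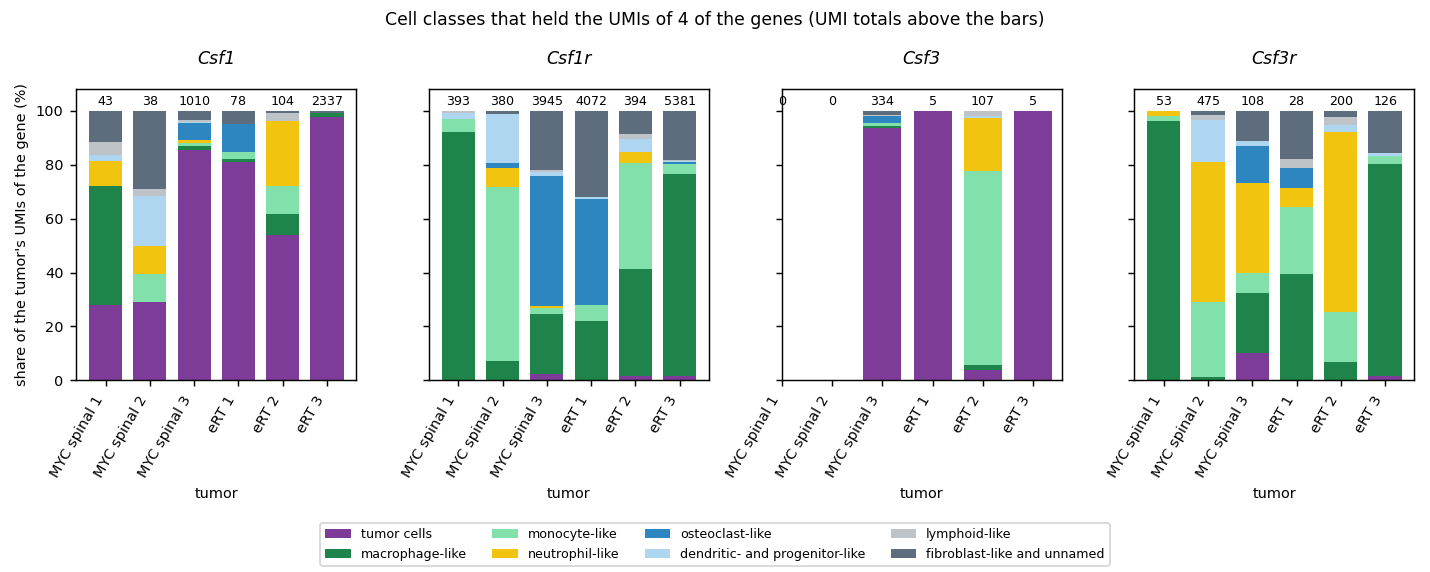
Share of each tumor's UMIs of Csf1, Csf1r, Csf3 and Csf3r (percent, stacked bars) that lay in each cell class, with the UMI total above each bar. Tumor cells hold 97.6% of Csf1 in eRT 3 and 93.4% of Csf3 in MYC spinal 3, whereas monocyte-like cells hold 72.0% of Csf3 in eRT 2.

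Csf1r, the receptor of CSF1 and interleukin 34, was highest in the mononuclear phagocytes. In macrophage-like cells it was at 671, 369 and 254 CPM in MYC spinal 1, 2 and 3, and eRT 1, 2 and 3 had 428, 318 and 788 CPM, a mean of 471 ± 211 CPM (SD, n = 6), or 492 ± 229 CPM (SD, n = 5) without MYC spinal 2. Osteoclast-like cells, found in numbers in MYC spinal 3 and eRT 1, held it at 245 and 377 CPM, and the 10 such cells of eRT 3 at 676 CPM. Monocyte-like cells followed at 226 ± 165 CPM (SD, n = 6), dendritic-like cells at 128 ± 97.5 CPM (SD, n = 6), neutrophil-like cells at 54.1 ± 33.6 CPM (SD, n = 3) and progenitor-like cells at 32.3 ± 32.8 CPM (SD, n = 3). Each class overlapped its neighbor in this order, and macrophage- and osteoclast-like cells of a tumor were close, with ratios of osteoclast- to macrophage-like level of 0.962 (0.888 to 1.04) in MYC spinal 3, 0.882 (0.812 to 0.958) in eRT 1 and 0.858 (0.578 to 1.23) in eRT 3.

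Clusters left without a name also held Csf1r, most of them led by genes of dividing cells or by Lpl. In the eRT, clusters led by Cenpf and by Rad51ap1 held it at 461 and 489 CPM and one led by Rrm2 and Lpl at 240 CPM, and in MYC spinal 3 a cluster led by Lpl and Sbsn held it at 207 CPM. A small cluster of 63 cells led by Pf4, mostly from eRT 3, held it at 535 CPM. They took no part in the class comparisons.

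A Csf1r UMI was seen in 80.0, 16.8 and 44.9% of macrophage-like cells in MYC spinal 1, 2 and 3 and in 77.5, 41.5 and 79.7% in eRT 1, 2 and 3. At 1000 UMIs per cell the shares were 47.4, 27.8 and 22.2% and 35.3, 26.0 and 53.8%, with 18 of 107 cells of MYC spinal 2 deep enough to count. MYC spinal 2 was lowest before thinning and MYC spinal 3 after it, so the unthinned shares also carry depth.

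Tumor cells held Csf1r at 0, 0 and 11.8 CPM in MYC spinal 1, 2 and 3, and eRT 1, 2 and 3 had 21.4, 9.60 and 27.1 CPM. This was 0 to 4.99% of the level in the macrophage-like cells of the same tumor. The summed 10 macrophage markers stood in tumor cells at 8.02 to 19.5% of their macrophage-like level in 5 tumors and at 94.8% in MYC spinal 2. In MYC spinal 2 the tumor cell sum was 68 UMIs of only 1 of the 10 markers (1502 CPM), against a low macrophage-like sum of 1585 CPM. That share therefore does not describe the macrophage markers as a set. T cell-like cells, which should lack Csf1r, held it at 0 to 67.7 CPM, more than the tumor cells in 3 of the 6 tumors. In no tumor did tumor cells exceed T cell-like cells beyond the counting intervals.

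Csf2ra, the ligand-binding chain for CSF2, was found in all the myeloid-like classes, with the lowest levels in progenitor-like cells. In macrophage-like cells it was at 367, 123 and 129 CPM in MYC spinal 1, 2 and 3, and eRT 1, 2 and 3 had 162, 121 and 284 CPM. Its mean was 126 ± 48.2 CPM (SD, n = 6) in monocyte-like, 109 ± 44.6 CPM (SD, n = 6) in dendritic-like and 99.6 ± 8.91 CPM (SD, n = 3) in neutrophil-like cells, and these ranges overlapped. Progenitor-like cells, of MYC spinal tumors only, lay under all of them at 0, 44.4 and 21.8 CPM in MYC spinal 1, 2 and 3 (22.1 ± 22.2 CPM, SD, n = 3), where 27 and 48 cells were behind the values of MYC spinal 1 and 3. Osteoclast-like cells were lower than macrophage-like cells of the same tumor, at 0.499 times (0.438 to 0.569) in MYC spinal 3, 0.412 times (0.350 to 0.484) in eRT 1 and 0.397 times (0.129 to 0.928) in eRT 3. Tumor cells held 3.20 to 22.1 CPM and T cell-like cells 0 to 31.3 CPM.

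Csf2rb, the shared signalling chain, ranged in macrophage-like cells from 41.0 CPM (MYC spinal 2) to 77.9 CPM (MYC spinal 1) in the MYC spinal tumors, with MYC spinal 3 at 66.6 CPM, and from 56.4 CPM (eRT 1) through 74.4 CPM (eRT 3) to 134 CPM (eRT 2). eRT 2 was highest in every myeloid-like class with more than 10 cells, with 270 CPM in monocyte-like cells against 45.5 to 77.0 CPM in the other 5 tumors, 186 CPM in dendritic-like cells against 70.4 to 131 CPM, and 379 CPM in neutrophil-like cells against 37.1 and 114 CPM. It is also the tumor with most of its Csf3 UMIs in monocyte- and neutrophil-like cells, while monocyte-like cells of MYC spinal 3 held 4. A link between the 2 genes was not tested. B cell-like cells, which share the beta chain for interleukin 5, held 12.1 to 71.5 CPM in the 3 tumors with at least 10 of them.

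Csf2rb lies beside its copy Csf2rb2 on chromosome 15 (chr15:78325752-78353847, plus strand, and chr15:78282507-78305721, minus strand, GRCm38), and reads could be confused between them. The last 500 bases of the 2 longest Csf2rb coding transcripts, where 3′ tags fall, shared 0 of 451 stretches of 50 bases with Csf2rb2. The ends of the other 3 Csf2rb coding transcripts, all shorter, shared 131 of 348, 60 of 451 and 15 of 291 (37.6, 13.3 and 5.15%), and 1 of the 2 Csf2rb2 coding transcripts shared 21 of 451 with Csf2rb (4.66%). Counts of both genes are uncertain as far as tags came from those ends, which the tables do not show. Csf2rb2 was lower in tumor than in myeloid-like cells as well, at means of 0.986 and 14.9 CPM (log2 fold change -4.15 ± 0.56 SE, edgeR adjusted p = 3.2e-04, lower in 6 of 6 tumors).

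Both chains of the CSF2 receptor were seen in the same cell in 0 to 15.5% of macrophage-like cells, in 7.81 and 13.7% of osteoclast-like cells of MYC spinal 3 and eRT 1, and in 0 to 0.406% of tumor cells. In the macrophage-like cells of MYC spinal 1, for example, 24 of 155 cells held both, 15.5% (10.2 to 22.2%), against 12.9% for chains that fall on cells independently. In monocyte-like cells the share with both ran from 1.35 to 6.07% and in dendritic-like cells from 1.04 to 17.1%. In the monocyte-like cells of MYC spinal 2 it was 27 of 2002, 1.35% (0.891 to 1.96%), above the 0.769% of independent chains beyond the counting interval. All these shares move with depth.

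Csf3r, the receptor of CSF3, marked the neutrophil-like cells. There it was at 155 CPM in MYC spinal 2 (246 UMIs), 93.7 CPM in MYC spinal 3 (36 UMIs) and 579 CPM in eRT 2 (133 UMIs), and at 1000 UMIs per cell it was seen in 12.7, 6.70 and 46.0% of cells. Monocyte-like cells held 5.01 to 65.7 CPM, osteoclast-like cells 0 to 1.94 CPM and tumor cells 0 to 1.36 CPM. Macrophage-like cells were split, with 94.6 CPM in MYC spinal 1 (51 UMIs in 29.7% of 155 cells) and 82 CPM in MYC spinal 2 (6 UMIs) against 5.35 to 28.3 CPM in the other 4 tumors. In MYC spinal 1 these cells held the 13 neutrophil markers at a summed 26.0 CPM, the lowest of the 6 tumors, and its table held 5 neutrophil-like cells, whereas in MYC spinal 2 the sum was 17007 CPM.

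**Figure D3:**
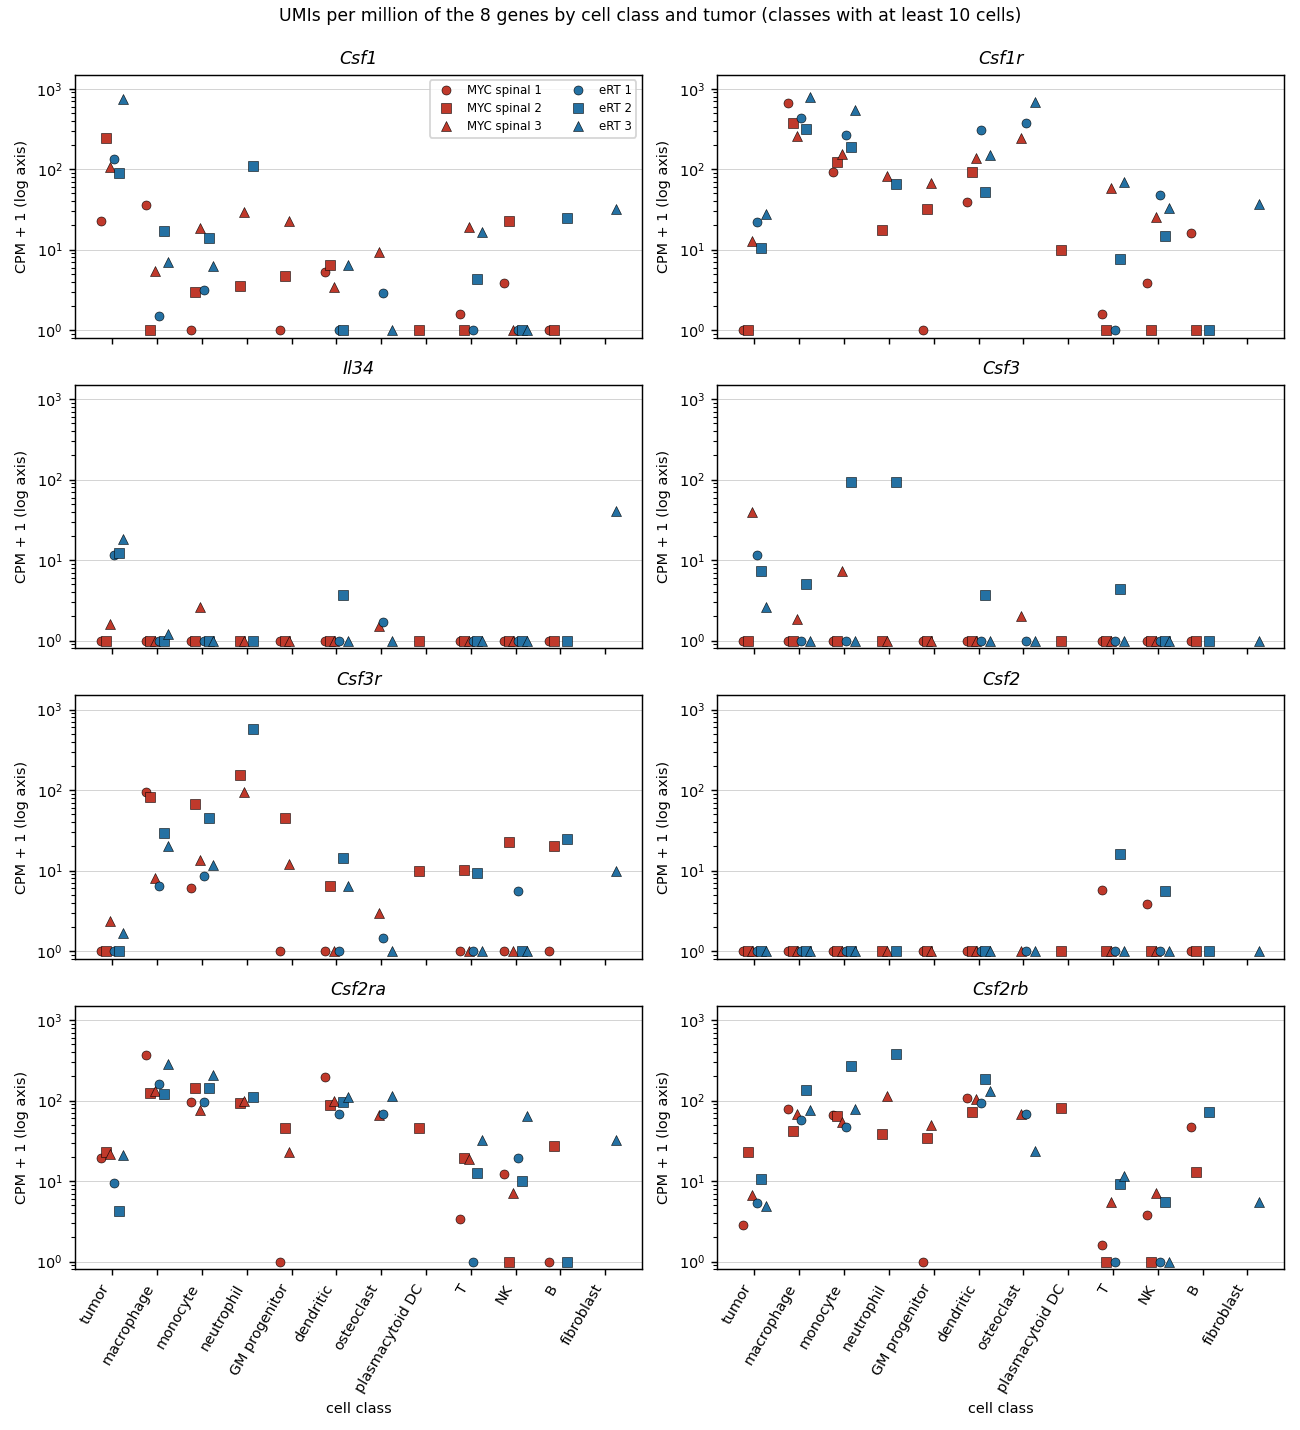
CPM plus 1 (log axis) of each of the 8 genes in each named cell class with at least 10 cells, a point per tumor, red for MYC spinal and blue for eRT, with the symbol giving the tumor. Csf1 reaches 22.0 to 754 CPM in tumor cells, with macrophage-like cells above them in MYC spinal 1 and neutrophil-like cells in eRT 2. Csf1r stands highest in macrophage- and osteoclast-like cells, Csf3r in neutrophil-like cells (93.7 to 579 CPM), and Csf2 lies at 0 outside the T and NK cell-like classes.

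The first comparison asked which members are higher in the tumor cells and which in the myeloid-like cells of the same tumor. UMIs were summed per tumor and class and tested over all genes with the tumor as a block, and a gene was called at an adjusted p under 0.05. Of the 8 members 4 passed the filter on low counts and all 4 were called, where 11.5% of the 9038 genes tested were called higher and 15.5% lower in tumor cells. A gene can pass that filter through the class in which it is high, so this count supports nothing by itself. Csf1 was higher in tumor cells (mean 225 against 10.5 CPM, log2 fold change 4.03 ± 0.95 SE, edgeR adjusted p = 0.0097, higher in 5 of 6 tumors and level in MYC spinal 1, at 1.01 times). Csf1r was lower (11.6 against 326 CPM, -5.00 ± 0.53 on the log2 scale, edgeR adjusted p = 7.1e-05), and so were Csf2ra (15.4 against 152 CPM, -3.66 ± 0.39, edgeR adjusted p = 7.3e-05) and Csf2rb (7.91 against 93.0 CPM, -4.26 ± 0.35, edgeR adjusted p = 3.4e-05), each in 6 of 6 tumors.

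The 4 calls held in all 15 alternatives that were run. Leaving out the cells with the highest doublet scores is among them, but that scoring did not work, so it does not test doublets. Without MYC spinal 2, Csf1 was at 3.68 (adjusted p = 0.043, edgeR), Csf1r at -4.99, Csf2ra at -3.70 and Csf2rb at -4.37. Csf1 was at 3.38 (adjusted p = 0.024, edgeR) without eRT 3, its highest tumor, and over all alternatives its adjusted p ran from 2.1e-06 to 0.043. The other 4 members were Il34, Csf2, Csf3 and Csf3r, with too few UMIs in the summed samples.

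The relatives of the family were read from a list of 50 genes of related ligands and receptors, the JAK-STAT relay, feedback genes, CSF1R signalling partners and myeloid transcription factors. Of the 38 tested in tumor against myeloid-like cells, 0 were called higher and 20 lower, with a median log2 fold change of -1.36 against -0.03 over all genes tested. The signalling partners of CSF1R made up 12 of the 20, of 14 tested, with a median of -3.59, and the transcription factors 5 of 7. The largest falls were in Irf8, a transcription factor of monocytes and dendritic cells (-5.22 ± 0.58), Tyrobp, an adaptor of myeloid receptors (-5.09 ± 0.46), and Spi1, which encodes PU.1 (-5.02 ± 0.41), with edgeR adjusted p = 8.9e-05, 4.6e-05 and 3.4e-05. The JAK-STAT relay, which most cell types use, had 1 of 8 called, and feedback genes 1 of 6. Many of the listed genes are myeloid genes by definition, and no test of the list itself was made.

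The second comparison asked which receptor marks which receiver, in the 3 tumors with at least 10 cells of both macrophage-like and neutrophil-like cells (MYC spinal 2 and 3 and eRT 2). Of 4 members tested 3 were called, where 4.03% of 3874 genes were called higher and 7.51% lower in macrophage-like cells. Here too a gene can pass the filter on low counts through the class in which it is high, so this count supports nothing by itself. Csf1r was higher in macrophage-like cells in 3 of 3 tumors (314 against 54.1 CPM, log2 fold change 1.99 ± 0.52, edgeR adjusted p = 0.029), and Csf3r was lower in 3 of 3 (39.1 against 276 CPM, -3.98 ± 0.64, edgeR adjusted p = 0.0020). In MYC spinal 2 the Csf3r difference in CPM lay within its counting interval. Csf2rb was lower on the scaled counts (80.4 against 177 CPM, -1.65 ± 0.46, edgeR adjusted p = 0.038), although its unscaled CPM was lower in 2 of 3 tumors, and Csf2ra was not called (124 against 99.6 CPM, -0.42 ± 0.38, edgeR adjusted p = 0.49).

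The Csf3r call held without each tumor in turn, whereas the other 2 did not. Csf1r was no longer called without MYC spinal 2 (1.18, adjusted p = 0.23, edgeR), whose macrophage-like cells carried neutrophil markers, or without eRT 2 (2.19, adjusted p = 0.068, edgeR). Without MYC spinal 2, Csf3r was at -4.81, Csf2rb at -1.93 and Csf2ra at -0.50. Csf2rb was no longer called without MYC spinal 3 (-1.78, adjusted p = 0.097, edgeR) or without eRT 2 (-1.20, adjusted p = 0.18, edgeR), and without the scaling factors of edgeR (TMM) its value was -0.92 (adjusted p = 0.16, edgeR). That scaling moved the median log2 fold change of all genes from 0.74 to 0.01 and the calls from 739 higher and 172 lower to 156 higher and 291 lower. Over all 12 alternatives the adjusted p ran from 0.0028 to 0.23 for Csf1r, from 0.012 to 0.29 for Csf2rb and from 5.0e-09 to 0.11 for Csf3r. In tumor against myeloid-like cells the same scaling moved the calls from 1682 higher and 1115 lower to 1039 and 1404, and the median from 0.24 to -0.03.

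From the list of relatives, Irf8, a transcription factor of the monocyte lineage, was higher in macrophage-like cells (1.75 ± 0.42, edgeR adjusted p = 0.019), and Cebpb, a factor of granulocyte and macrophage genes, was lower (-2.23 ± 0.60, edgeR adjusted p = 0.036). Of the 24 tested, 21 were not called.

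Between macrophage-like and monocyte-like cells, none of the 4 members tested was called, where 0.142% of 5615 genes were called higher and 0.232% lower. Csf1r was higher in macrophage-like cells in 6 of 6 tumors, by 1.46 to 7.45 times in CPM, but missed the threshold over all genes (471 against 226 CPM, log2 fold change 1.08 ± 0.31, unadjusted p = 0.0060 and adjusted p = 0.18, edgeR). Csf2ra was at 0.56 ± 0.30, Csf2rb at -0.15 ± 0.26 and Csf3r at 0.23 ± 0.51 on the log2 scale. Without MYC spinal 2, Csf1r was at 1.01, Csf2ra at 0.69 and Csf2rb at -0.10, and Csf3r did not pass the filter. Of the list of relatives 28 were tested and 0 were called. Without the filter on low counts 2 members were called, Csf1r at 1.15 (adjusted p = 1.1e-04, edgeR, up to 0.85 in the other alternatives) and Csf3, which was lower in macrophage-like cells and came from the 2 tumors described above.

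**Figure D4:**
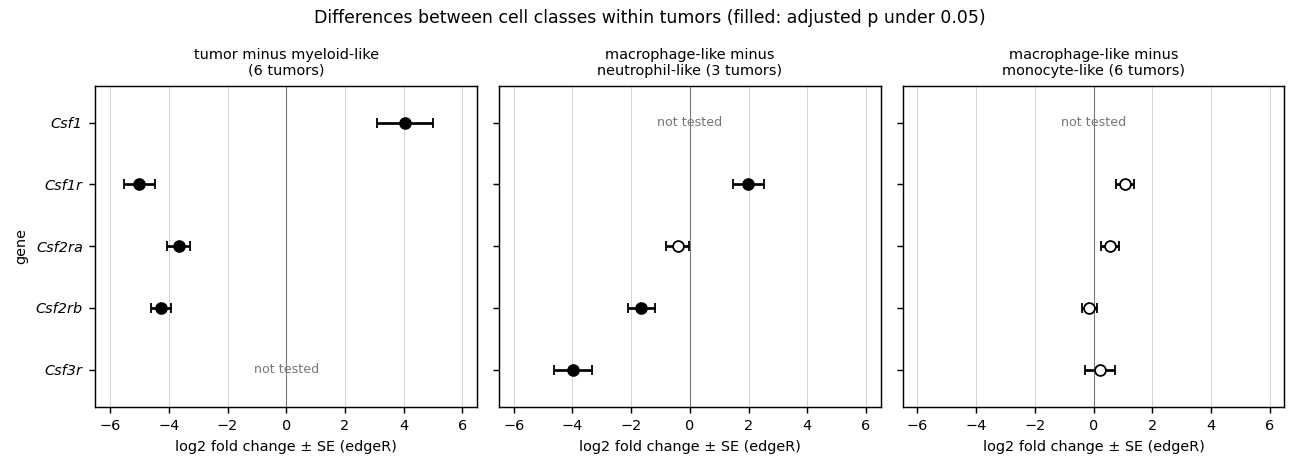
Log2 fold changes with their standard errors for the members tested in the 3 comparisons of cell classes within tumors, with filled points for an adjusted p under 0.05. Csf1 lies to the right in tumor cells (4.03) and the receptors to the left (-5.00 to -3.66), while Csf1r and Csf3r lie on opposite sides between macrophage-like and neutrophil-like cells (1.99 and -3.98).

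The series has 2 tumor subtypes, and the members were compared between them as eRT minus MYC spinal. In tumor cells, 0% of 5716 genes were called by edgeR, with 194 at an unadjusted p under 0.05 and 20 called by DESeq2. Csf1 averaged 326 ± 371 CPM (SD) over the 3 eRT, against 124 ± 111 CPM (SD) over the 3 MYC spinal tumors (log2 fold change 1.85 ± 1.07, edgeR adjusted p = 1.0). The difference lay within the spread, rested on eRT 3 (0.32 without it), and with the mouse strain as a covariate was 0.31. Without MYC spinal 2 it was 2.53 (adjusted p = 1.0, edgeR), with a mean of 64.4 ± 59.9 CPM (SD) over the other 2 MYC spinal tumors. Csf2ra was at -0.45 ± 0.60, and the other members were not tested there.

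In macrophage-like cells, 0% of 7336 genes were called by edgeR, with 170 at an unadjusted p under 0.05 and 10 called by DESeq2. Csf1r averaged 511 ± 246 CPM (SD) over the 3 eRT, against 431 ± 216 CPM (SD) over the 3 MYC spinal tumors (0.34 ± 0.55). Csf2ra was at -0.07 ± 0.58, Csf2rb at 0.48 ± 0.47 and Csf3r at -1.61 ± 0.94 on the log2 scale, each with an edgeR adjusted p = 1.0. Without MYC spinal 2 the values were 0.21 for Csf1r, -0.31 for Csf2ra, 0.33 for Csf2rb and -1.43 for Csf3r, and Csf1r averaged 463 ± 295 CPM (SD) over the other 2 MYC spinal tumors. The subtypes were clustered apart, and the macrophage-like cells were led by Ccl12 and C1qa or by Cd207 in MYC spinal tumors, and by class II genes, Cbr2 or Ccl7 in eRT.

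In neutrophil-like cells the comparison set eRT 2 alone against MYC spinal 2 and 3, under the assumption that the lone tumor varies like the others, and 7.39% of 4030 genes were called. The spread in this fit comes from MYC spinal 2 and 3 and from the trend over genes, with none measured among eRT, and eRT 2 is also the only Sox2-cre tumor of the 3, so that subtype, strain and the single tumor cannot be told apart. The p-values therefore describe how eRT 2 stood against 2 MYC spinal tumors and not the subtypes. A gene can also pass the filter on low counts through eRT 2 alone, so a count of members supports nothing by itself. Of 6 members tested 4 passed the threshold, all higher in eRT 2. Csf1 was at 109 against 2.51 and 28.6 CPM (log2 fold change 3.36 ± 0.93, edgeR adjusted p = 0.0071), Csf2rb at 379 against 37.1 and 114 CPM (2.64 ± 0.83, edgeR adjusted p = 0.027) and Csf3r at 579 against 155 and 93.7 CPM (2.39 ± 0.82, edgeR adjusted p = 0.047). Csf3 was at 91.4 CPM in eRT 2 and at 0 in both MYC spinal tumors (edgeR adjusted p = 1.5e-06), so that it was at least 11.7-fold higher than 3 counts in the neutrophil-like cells of MYC spinal 3 and at least 48.5-fold higher than 3 counts in those of MYC spinal 2. Csf1r (0.81 ± 0.90) and Csf2ra (0.41 ± 0.86) were not called.

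The cells compared also differed in stage. The MYC spinal 2 cells included 600 of 1344 in a cluster led by Camp, Ngp and Cebpe, genes of immature neutrophils, and the eRT 2 cells lay in a cluster led by S100a8, whose Smarcb1 UMIs were 0.114 of the expected number. The list of relatives had 3 of 26 higher, Pim1 (4.16 ± 0.80), Socs3 (3.82 ± 0.86) and Egr1 (3.38 ± 0.83), which are known as genes induced by cytokine or growth factor signals, and 1 lower, Cebpe, a factor of granule formation (-5.34 ± 1.37), with edgeR adjusted p = 2.1e-05, 4.6e-04, 0.0018 and 0.0027. Their median was 0.53, against -0.32 over all genes tested. The part of stage in these differences was not tested, and the calls of Csf1, Csf2rb and Csf3r were lost under a stricter cell filter (adjusted p = 0.10, 0.17 and 0.19, edgeR), and over all 8 alternatives their adjusted p ran from 0.0045 to 0.16, from 0.018 to 0.17 and from 0.043 to 0.19.

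Whether the tumor against myeloid-like difference itself differed between the subtypes was tested with an interaction term. None of the 4 members was called and 0% of 9038 genes were, with 281 at an unadjusted p under 0.05 in edgeR and 2 called by DESeq2. The interaction was 2.15 ± 1.69 for Csf1, 1.14 ± 1.04 for Csf1r, -1.16 ± 0.72 for Csf2ra and -0.44 ± 0.76 for Csf2rb, and without MYC spinal 2 it was 3.32, 1.07, -1.16 and -0.22.

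Genes whose levels followed those of a member were named from the Pearson correlation of log2(CPM + 10) over 47 summed classes of the 6 tumors, out of 10361 genes, as a description, since points from a tumor share a library. Csf1 was most like Rin1 (r = 0.81), Klhdc8a, Dnm3, Mtmr11 and Adamtsl5, and Klhdc8a was also among the leading genes of the large MYC spinal tumor cluster. Csf1r was most like Msr1 (0.89), Tgfbi, AF251705, Guca1a and Ms4a7, and Csf2ra most like Igsf6 (0.85), Card9, Ltbr, Ms4a6c and Csf1r itself (0.83). Csf2rb was most like Skap2 (0.87), Pirb, Spi1, Lyn and I830077J02Rik, Csf3r most like F630028O10Rik (0.80), Slfn4, Cebpb, Ets2 and Mrgpra2b, and Csf3 most like F3 (0.80), Arg2, Cxcl3, Dusp16 and Rhov. With a pseudocount of 1, 12 of these 30 genes stayed among the first 5.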

How the data were processed

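The authors made 10x Genomics 3′ v2 libraries from viable sorted cells, aligned them to mm10 with Cell Ranger 2.0.2 and, for each tumor, deposited a table of raw UMI counts that precedes their own cell filter. Cells were numbered, not given by barcode, so barcodes shared between libraries were not counted. Groups came from the tissue named in each sample's labels. There were 0 per-sample columns left unused.

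A cell was kept if it had 200 genes or more and a mitochondrial share of no more than 25%. The tumors of a subtype were integrated and clustered with Seurat 5.3.0 (2000 variable genes, 30 dimensions, 20 neighbors, resolution 0.8), leaving out 59 genes (the members, the list of relatives and Smarcb1). Naming a cluster took 3 or more markers of 1 type, each present in 10% or more of the cells and raised by 1 or more on the log2 scale. A cluster without the name of an immune class was called tumor under a Smarcb1 ratio of 0.25 with at least 10 UMIs expected. Scrublet, run through Scanpy, marked 20 cells (0.0902%), so it cannot have worked, and doublets were left in.

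UMIs were summed per tumor and class of at least 10 cells and tested with edgeR 4.0.16 (TMM, filterByExpr, quasi-likelihood F test, Benjamini-Hochberg over all genes, threshold 0.05), with DESeq2 1.42.0 as an alternative, in R 4.3.3. The study compared single cells, which are not replicates of a condition. The test scripts were checked on simulated counts. These had the same spread for every gene and no differences between tumors, unlike the real data, so the check covers the scripts and not the design. Intervals are exact at 95% (Poisson for CPM, binomial for shares and ratios), and a 0 is given the value of 3 counts. Named were the 8 members, Csf2rb2 and Smarcb1, the 5 genes most correlated with each member of at least 200 UMIs, and for each comparison the 3 listed relatives with the largest called change in a direction. The members and the lists were chosen with earlier results of these data known. Alternatives were other scaling, filters, resolutions, the Smarcb1 limit, no block, strain as a covariate and each tumor left out. A further alternative left out the cells with the highest Scrublet scores, which does not test doublets because Scrublet did not work here. Some genes of the lists and of the clusters' leading genes are not reported here, so that not every called gene is named.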

Additional observations from a re-analysis of the deposited data

How the results depend on the processing

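Of the tests of members, 319 alternative values kept their direction and side of the threshold, 23 lost the call, 1 gained it and 16 turned direction, none of these a call. The count of members called in tumor against myeloid-like cells was 4, and 6 without the low-count filter. In macrophage-like against neutrophil-like cells it was 3, with 1 to 3 when a tumor was left out (1 without eRT 2, 3 without MYC spinal 2, where Csf1 entered the test and Csf1r lost its call) and 0 without the block by tumor, where 17 genes were called in place of 447, against 911 without TMM and 290 at resolution 1.6. In macrophage-like against monocyte-like cells it was 0, and 2 without the low-count filter, while the 21 genes called became 136 with DESeq2, 538 without that filter, 0 to 55 without a tumor, 43 under the stricter cell filter (500 genes, 10% mitochondrial), 36 and 48 at resolutions 0.4 and 1.6, and 0 without the block. In neutrophil-like cells between subtypes it was 4, and 2 without TMM, 1 with DESeq2, 2 without the low-count filter and 0 under the stricter cell filter, with 183 genes called by DESeq2 and 103 under that cell filter in place of 298. The cause was not tested. In macrophage-like cells between subtypes 16 genes were called without the low-count filter.

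The log2 fold changes that turned direction were Csf2ra at 0.32 without TMM in macrophage- against neutrophil-like cells, and Csf2rb at 0.15 without eRT 2 (-0.26 to 0.15 over the tumors left out) and Csf3r at -0.33 without MYC spinal 1 (-0.33 to 0.44) and -0.21 at resolution 0.4 in macrophage- against monocyte-like cells. In macrophage-like cells between subtypes they were Csf1r at -0.00 without MYC spinal 3, -0.25 without eRT 3 (-0.25 to 0.89) and -0.04 with strain as a covariate, Csf2rb at -0.24 with that covariate, and Csf2ra at 0.71 without MYC spinal 1, 0.04 without eRT 1, 0.23 without eRT 2 (-0.61 to 0.71), 0.07 without the low-count filter, 0.06 under the stricter cell filter and 0.15 at resolution 0.4. The interaction turned for Csf1r (-0.02 without MYC spinal 1 to 7.98 without MYC spinal 3, the only MYC spinal tumor with Csf1r UMIs in tumor cells) and Csf2rb (-0.95 to 0.03 without MYC spinal 3).

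No paired analysis between the subtypes was possible because their tumors came from different mice. Between neutrophil-like cells of the subtypes, neither leaving out a tumor nor the strain as a covariate could be fitted. TMM moved the median of all genes between subtypes from -0.27 to 0.05 in tumor cells and from -0.54 to -0.32 in neutrophil-like cells. Depth limits the 16 tumor cells of MYC spinal 2 most, and members with under 10 UMIs in a class are not measured beyond detection. Thinning moved 54 of 60 shares of positive cells, each of a single tumor, outside their exact binomial intervals. Mean CPM moved in 2 of 170 cases.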
